A study of Mus musculus with 3 samples.

Results

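The transcripts described here are those that the mouse gene annotation classes as targets of nonsense-mediated decay (NMD), measured in the cytosol of macrophages. The members were chosen by 2 conditions, the annotated class of the transcript and a summed level of its gene of at least 5 TPM, the length-normalised transcript abundance, in every library by both deposited transcript tables. Of 7186 NMD transcripts in 4576 genes, 1475 transcripts in 923 genes met them, out of 141767 annotated transcripts, and 5711 were left out by the level of their gene. The cells were macrophages grown from bone marrow (BMDM, primary cells) of C57BL/6J mice. All libraries came from 1 group of 3 biological replicates, with no untreated cells and no other fraction. The cells received 100 ng/ml Lipid A, the part of lipopolysaccharide that TLR4 recognises, for 12 hours, spent 12 hours after its removal, and received 100 ng/ml again for 30 minutes before the cytosolic fraction was taken. Each library was made from 1 µg of ribosomal RNA-depleted total RNA. The sex and age of the animals were not collected and the 3 samples carry the same donor entry, so the SDs given here are those between these samples and may be technical in part or in whole.

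NMD is a surveillance pathway that degrades mRNAs on which translation ends too early. During splicing an exon junction complex is left near each junction, and the first ribosomes to pass remove these complexes. Where a ribosome stops well upstream of a junction, the complex that remains recruits UPF2 and UPF3, the helicase UPF1 is phosphorylated by SMG1, and SMG6, an endonuclease, or SMG5 with the decapping and deadenylation enzymes, starts the decay. The pathway acts on translated RNA, so its substrates are met by ribosomes in the cytosol. It also takes part in gene control, since splicing factors and ribosomal proteins are known to limit their own levels by switching their mRNAs to forms that the pathway degrades.

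The stop codon is the feature that makes these transcripts NMD candidates, so the reading frame is shown for members with high shares. Each line gives the coding sequence of the member from the GENCODE M21 transcript, 5′ to 3′. The lower case bases are the last ones shared with the main coding transcript, the protein-coding transcript of the gene with the highest mean TPM in the first table. The capitals run from the first base that differs in position to the premature stop codon. Coordinates span these bases in mm10 and include any introns between them. Mrps14-201 (chr1:160195297-160197010, plus strand), Ppia-201 (chr11:6415965-6418243, plus), Ostf1-205 (chr19:18598954-18604180, minus), Mtch2-203 (chr2:90847371-90849648, plus), Rgs1-204 (chr1:144248605-144248915, minus), Ndufs4-202 (chr13:114317014-114387973, minus) and Ctsh-202 (chr9:90060496-90062725, plus) are shown because each took over 20% of its gene's TPM in every library by both tables.
Mrps14-201: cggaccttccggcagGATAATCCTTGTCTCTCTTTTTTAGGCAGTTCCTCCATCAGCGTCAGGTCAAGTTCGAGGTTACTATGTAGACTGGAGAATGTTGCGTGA
Ppia-201: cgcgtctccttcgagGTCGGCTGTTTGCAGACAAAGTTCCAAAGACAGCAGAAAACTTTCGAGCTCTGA
Ostf1-205: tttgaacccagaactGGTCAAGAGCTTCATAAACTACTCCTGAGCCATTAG
Mtch2-203: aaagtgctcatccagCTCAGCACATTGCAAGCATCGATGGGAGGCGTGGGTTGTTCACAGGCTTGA
Rgs1-204: aaggccaaagactttATAA
Ndufs4-202: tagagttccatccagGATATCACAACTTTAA
Ctsh-202: tcatggatgaaacagTGGCATTGA

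These sequences show 3 ways of reaching a stop. Ostf1-205 enters an inserted exon at codon 28, and all 36 bases from there to the stop, TAG, lie outside the exons of the main transcript. Rgs1-204 reads past an altered exon end, departs in codon 46 and reaches the end of its stop, TAA, 4 bases later. In Mtch2-203, Ndufs4-202 and Ctsh-202 no base after the departure lies outside the main transcript's exons, so the stop is read in another frame of exons that the main transcript also uses. Mrps14-201 and Ppia-201 combine both, with 25 of 90 and 5 of 54 bases outside those exons.

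Across the 923 genes the NMD transcripts made up a small and very even part of the RNA. Their pooled share, the sum of the members' TPM over the sum of TPM of all transcripts of the same genes, was 7.11%, 7.10% and 7.04% in replicates 1, 2 and 3 by the first table and 8.24%, 8.18% and 8.14% by the second. The mean of both tables was 7.63% ± 0.0409 (SD, n = 3 libraries). Protein-coding transcripts of these genes held 86.0% ± 0.718 and transcripts classed as processed, without a coding frame, 2.24% ± 0.155. Retained-intron transcripts held 4.15% ± 0.603, with 4.11%, 3.57% and 4.77% in the 3 libraries. The retained-intron share therefore varied between the libraries while that of the NMD transcripts stayed within 0.1 percentage points of its mean. In the 766 genes that have both classes, the NMD share exceeded the retained-intron share by 3.01, 3.62 and 2.05 percentage points (mean 2.90 ± 0.792, n = 3). The difference was positive in 3 of 3 libraries, and the two-sided exact sign-flip test gave p = 0.25, the smallest value that 3 libraries allow.

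Single members were mostly rare. The median share of a member in its gene was 0.716% by the first table and 1.21% by the second, and 114 members were listed at 0 in every library by both tables. A share of at least 10% in every library by both tables was reached by 147 of the 1475 members, or 9.97%, in 139 genes, and a share of at least 50% by 11. By the same 10% rule, 17.1% of all 8523 transcripts of these genes passed, a higher percentage than that of the members. It was 32.3% for protein-coding, 4.2% for processed and 2.71% for retained-intron transcripts. The TPM values that set the 5 TPM condition also enter these shares, so the counts are descriptions. Summed over all members of a gene, the NMD share was at least 10% in every library by both tables in 159 genes, or 17.2% of the host genes. It was at least 50% in 21 genes and below 1% in 218. The genes nearest to the level condition were Setd2, Idh2 and Ndst2 just inside it, with lowest summed values of 5.01, 5.02 and 5.02 TPM, and Dpp3, Mat2b and Wsb1 just outside, with 4.96, 4.99 and 4.99 TPM. The second table set this condition, because it gave lower TPM for the same genes.

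Member shares were alike in the 3 libraries and, less closely, in the 2 tables. Over the 1475 members Pearson's r between libraries ran from 0.966 to 0.981 within a table. Between the tables' mean shares r was 0.886. The order of the members was less alike. Spearman's rho, taken over ranks, ran from 0.853 to 0.890 between libraries within a table and was 0.832 between the tables. These are descriptions over transcripts that share reads and libraries. The 147 members above 10% had a median SD over the libraries of 2.88 percentage points by the first table and 2.60 by the second, and their median distance between the tables was 4.82 points. For 36 of them the tables lay more than 10 points apart.

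**Figure D1:**
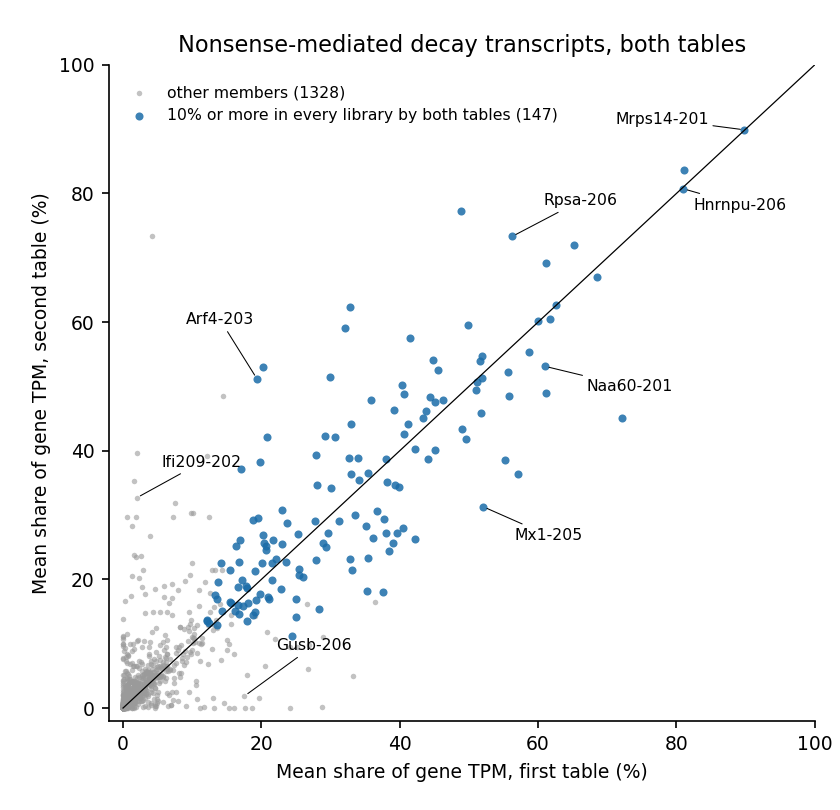
Mean share of each of the 1475 NMD transcripts in the TPM of its gene (%, 3 libraries) by the first table (x axis) against the second table (y axis), with equality as a line. The 147 members above 10% in every library by both tables are blue; Mrps14-201 and Hnrnpu-206 lie on the line, Arf4-203 and Ifi209-202 far above it and Mx1-205 and Gusb-206 below it.

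The highest shares were found in genes of the mitochondrial ribosome and of a nuclear RNA-binding protein. Mrps14 encodes a protein of the small mitochondrial ribosomal subunit. Its NMD transcript Mrps14-201 took 89.7%, 89.9% and 89.9% of the gene's TPM in replicates 1, 2 and 3 by the first table (89.8% ± 0.109, n = 3) and 90.7%, 89.7% and 89.2% by the second. No library stood apart, and the main coding transcript, Mrps14-203, held 8.87% and 7.64%. Mrpl32 encodes a protein of the large mitochondrial subunit, and Mrpl32-201 took 81.5%, 73.6% and 88.4% by the first table and 83.0%, 78.4% and 89.4% by the second. Replicate 2 was lowest and replicate 3 highest in both tables. Mrpl32-201 is marked as incomplete in the annotation and has 658 bases, against 3013 for its main transcript. By estimated counts it held 53.3% ± 10.2 and 57.3% ± 8.31. Hnrnpu encodes a nuclear matrix protein that binds pre-mRNA and chromatin. Hnrnpu-206 took 79.4%, 82.2% and 81.4% by the first table and 78.8%, 83.3% and 80.1% by the second, and its level was 61.2 ± 4.70 TPM in the first table. It leaves the main reading frame at codon 784 by splicing into the 3′ untranslated region of the main transcript, where its stop lies. Behind the stop are 3 junctions, the last of them 183 bases away, and it holds 267 bases beyond the 3′ ends of all coding transcripts of the gene.

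Several further members of this rank belong to genes that most cell types express. Ppia encodes cyclophilin A, an abundant prolyl isomerase, and Ppia-201 had the highest level of all members, 327 ± 20.9 TPM in the first table and 120 ± 33.3 TPM in the second. It took 63.6%, 65.9% and 66.1% of its gene by the first table and 68.9%, 73.5% and 73.7% by the second. The lowest share was that of replicate 1 in both tables. Near-identical transcripts were found in 17 other genes, 16 of them pseudogenes, which held 4.24% of the joint estimated counts. Mtch2 encodes an insertase of the outer mitochondrial membrane, and Mtch2-203 took 66.8%, 57.4% and 59.1%, then 69.5%, 70.3% and 67.9% by the second table. Prdx6, a peroxiredoxin, had 54.7%, 60.1% and 65.2% in Prdx6-208 by the first table and 56.3%, 60.9% and 63.5% by the second. Naa60 encodes an N-terminal acetyltransferase of the Golgi. Naa60-201 took 60.6%, 60.2% and 62.2% by the first table and 52.4%, 51.8% and 55.2% by the second, and it has the same coding sequence as the main transcript Naa60-212. Its class rests on 1 junction 186 bases behind the stop. Naa60-201 has no base or junction of its own, so its share is uncertain. Sra1, which gives both a noncoding RNA coactivator and a protein, had 78.0%, 63.6% and 63.9% in Sra1-203 by the first table and 71.1%, 63.3% and 66.7% by the second, with replicate 1 highest in both. Sra1-203 is marked as incomplete in the annotation.

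The remaining members of the 12 highest lie in genes of immune cells and of the ribosome. Ostf1 encodes an adaptor protein known from osteoclasts, which share their precursors with macrophages. Ostf1-205 took 64.9%, 59.4% and 63.5% by the first table and 65.1%, 60.0% and 63.1% by the second, against 34.3% and 34.8% for the coding transcript Ostf1-204. The member holds 77 bases and 2 junctions found in no other transcript of the gene. Rgs1, an inhibitor of G protein signalling in leukocytes, varied more in level than in share. Rgs1-204 was at 128, 105 and 28.3 TPM in the first table, lowest in replicate 3, while its share was 59.5%, 60.5% and 56.2% by the first table and 55.3%, 57.2% and 53.7% by the second. Lilrb4a encodes an inhibitory receptor of myeloid cells, and Lilrb4a-205 was the least even of the 12, with 65.5%, 71.8% and 47.9% by the first table and 56.9%, 73.4% and 51.1% by the second. It has no base or junction of its own, and 2 other genes have a near-identical transcript and held 69.4% of the joint counts, so its value is uncertain. The same holds for Lilr4b-204 of the neighbouring gene, at 39.3% ± 3.79 and 34.7% ± 2.60, where the other genes held 59.1%. Oasl2-205, of an interferon-induced gene, was among the 8 members of highest level, at 110 ± 12.5 TPM in the first table, and took 61.1% ± 1.62 and 48.9% ± 1.25. This member is marked as incomplete in the annotation.

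**Figure D2:**
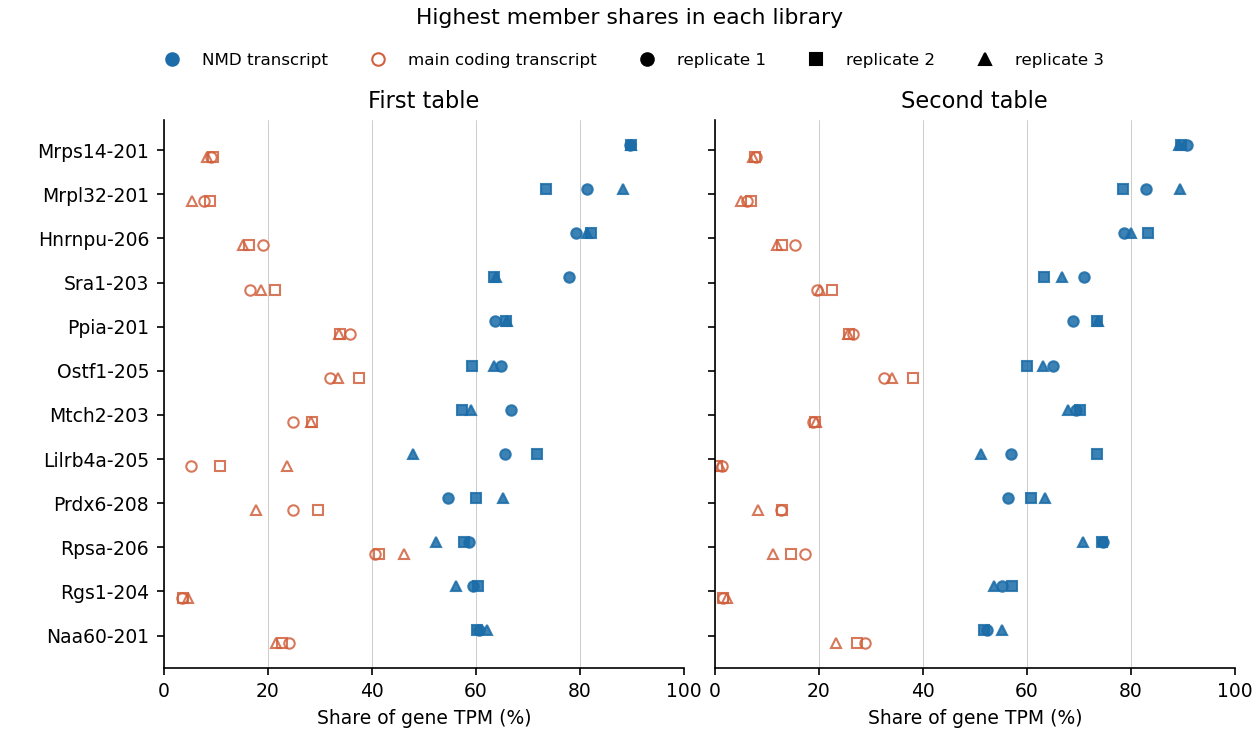
Share of gene TPM (%, x axis) of the 12 members with the highest shares (filled) and of the main coding transcript of the same gene (open) in each library, by the first table (left) and the second (right); symbols mark the replicates. In every library and both tables the NMD transcript lies to the right of the coding transcript, with the smallest distance for Rpsa-206 in the first table.

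Among the 147 members above 10%, 53 exceeded the main coding transcript of their gene by both tables. The main transcript was chosen by the first table alone. Exceeding it does not mean exceeding all coding transcripts of the gene together. The median length of the 147 was 1283 bases against 2020 for the main transcripts, and 43 of the 147 were longer than theirs. Their median coding sequence was 210 bases against 795. TPM divides by length, so the share of estimated counts was also taken. By counts Mrps14-201 (674 bases, main transcript 2999 bases) held 61.5% ± 1.44 of the first table's counts for its gene and 64.0% ± 0.660 of the second's. Hnrnpu-206 (2844 bases, main transcript 7640 bases) held 62.4% ± 2.87 and 66.9% ± 3.22. Xaf1-201 (415 bases, main transcript 2597 bases) held 8.99% ± 0.656 and 10.1% ± 0.363, against 42.2% and 40.3% of TPM. Mx1-205, longer than its main transcript by the annotation, held 68.3% ± 3.01 and 48.6% ± 4.14. By counts 115 members passed 10%, and 109 of the 147 were among them. The pooled share by counts was 5.17%.

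The annotated class rests on the position of the stop codon against the exon junctions. The members were chosen by this class, so the counts that follow describe the annotation and not the libraries. In 1462 of 1475 members, 99.1%, the stop codon lies at least 50 bases upstream of the last exon junction, and in 1470 at least 1 junction follows it. The median distance was 290 bases and the median number of junctions behind the stop was 3. The stop most often falls in an exon that is coding in the main transcript, read in another frame, with 787 members. Inserted exons hold 330 stops, altered exon ends 180, exons outside the main transcript 56 and retained introns 28. In 70 members the stop is that of the main transcript and a splice junction follows it in the 3′ untranslated region.

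The percentage of members above 10% differed between these classes. Of the members that keep the normal stop 13 of 70 passed, 18.6%, against 82 of 787 for stops in a shared coding exon (10.4%), 29 of 330 for inserted exons (8.79%), 14 of 180 for altered exon ends (7.78%) and 0 of 28 for retained introns. These differences were not tested, since members of 1 gene share reads. In 4 of the 13 the coding sequence is identical to the main one, in Naa60-201, Hnrnpa1-203, Hnrnpdl-201 and Tmem176a-207, which were named after their values were seen. These transcripts encode the same protein as the main transcript. Members at transcript support level 1, a grade of the annotation's evidence, passed in 61 of 334 cases, 18.3%, those at level 2 in 11 of 109 (10.1%), at level 3 in 16 of 327 (4.89%), at level 5 in 43 of 522 (8.24%) and those with no level given in 16 of 183 (8.74%). Members marked as incomplete passed in 25 of 444 cases, 5.63%, and complete ones in 122 of 1031, 11.8%. Where the main transcript runs at least 500 exon bases beyond the member's 3′ end, 53 of 829 members passed, 6.39%, and otherwise 94 of 646, 14.6%. No base or junction of its own marked 190 members, of which 24 passed, 12.6%. For these the share rests on how the estimates divide reads that other transcripts could also have given.

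**Figure D3:**
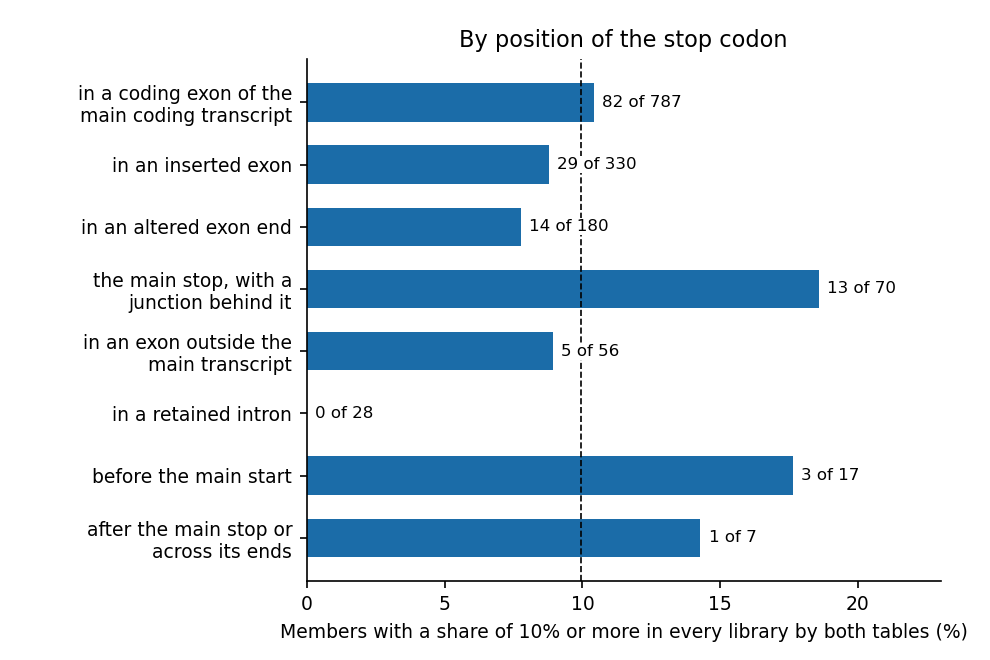
Percentage of members with a share of at least 10% in every library by both tables (x axis) for each position of the stop codon against the main coding transcript; the numbers give passing and all members, and the dashed line marks all members. The highest bar is that of the members with the main stop and a junction behind it, 13 of 70; no member with its stop in a retained intron passed.

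SR proteins and hnRNPs, which bind pre-mRNA and steer splice site choice, had many NMD transcripts. Of 47 listed genes 32 met the level condition and 23 had a member. The summed NMD share reached 10% in every library by both tables in 7 of the 23, 30.4%, against 17.2% of all host genes, and the median summed share was 5.29% and 6.77% by the 2 tables, against 1.58% and 2.70% over all host genes. The 7 were Hnrnpu, Hnrnpdl, Hnrnpa1, Srsf2, Rbm39, Hnrnpd and Srsf3. Below Hnrnpu, the highest members were Srsf2-204, Hnrnpa1-203, Hnrnpdl-201 and Hnrnpd-208, and all of these keep the main stop codon and carry 2 junctions behind it. Srsf2-204 and Hnrnpd-208 are marked as incomplete and have no base or junction of their own, so their shares are uncertain. Srsf2 encodes an SR protein that promotes exon inclusion. Srsf2-204 took 49.5%, 55.9% and 41.8% by the first table and 45.3%, 52.5% and 32.5% by the second, highest in replicate 2 and lowest in replicate 3, against 32.0% and 35.3% for the coding transcript Srsf2-201. The member has 620 bases and Srsf2-201 has 1899, and by counts its share was 20.6% ± 4.51 and 17.2% ± 5.32. Hnrnpa1 encodes an hnRNP that often promotes exon skipping, and Hnrnpa1-203 took 33.0%, 38.3% and 43.2%, then 30.7%, 36.4% and 38.6%. It stayed below the coding transcript Hnrnpa1-202, at 59.1% and 59.4%, and holds 224 bases beyond the 3′ ends of the coding transcripts. Near-identical transcripts of 11 other genes, 10 of them pseudogenes, held 1.69% of the joint counts. Hnrnpdl-201 took 39.1%, 37.9% and 21.9% by the first table and 46.0%, 51.6% and 34.9% by the second, lowest in replicate 3 in both. It holds 442 exon bases upstream of the starts of all coding transcripts. Hnrnpd, an AU-rich element binding protein that regulates cytokine mRNA turnover, had 29.0%, 35.9% and 41.4% in Hnrnpd-208 by the first table and 20.4%, 22.9% and 26.5% by the second.

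Genes of cytosolic ribosomal proteins passed in 5 of 17 cases with a member, 29.4%, against 17.2% of all host genes. Their median summed share was 1.87% and 2.46%, against 1.58% and 2.70% over all host genes. Among the 5 were Rpsa, Rpl13a, Rpl14 and Rps19. Rpsa encodes a protein of the small subunit, and Rpsa-206 took 58.7%, 57.7% and 52.3% by the first table and 74.6%, 74.5% and 70.8% by the second. The tables did not overlap, and the coding transcript Rpsa-201 was at 42.7% in the first and 14.4% in the second. Rpl14-205 was at 12.2%, 11.6% and 26.6% by the first table, with replicate 3 far above the others, and at 20.0%, 18.3% and 29.8% by the second. By counts it held 8.98% ± 5.11 and 12.4% ± 4.20. Rps19-205 was at 13.3% ± 2.15 and 17.5% ± 2.13, and Rpl13a-216 at 12.6% ± 3.01 and 14.9% ± 1.56. Most ribosomal protein genes had no member, since 80 of the 86 listed met the level condition and 17 had an NMD transcript.

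Of genes of mitochondrial proteins, the list held the Nduf, Cox, Atp5, Uqcr, Mrpl, Mrps and Slc25 families. These passed in 10 of 30 cases, 33.3%, against 17.2% of all host genes. Their median summed share, 1.35% and 1.15%, however lay below that of all host genes. High and near-zero shares therefore stood side by side. The 10 were Mrpl32, Mrps14, Ndufs4, Mrpl3, Atp5f1, Ndufa3, Ndufa10, Slc25a22, Mrpl17 and Ndufa7. Mtch2, Sdhaf2 and Bak1, outside the list, also passed, so the count depends on which genes were listed. Atp5f1, the gene of subunit b of ATP synthase, divided its RNA almost evenly. Atp5f1-203 took 48.1%, 52.2% and 55.5% by the first table and 51.1%, 50.3% and 52.4% by the second, against 47.1% and 47.5% for the coding transcript, and it holds an inserted exon with 167 bases found in no other transcript of the gene. Ndufs4-202, of a complex I subunit, took 59.2%, 51.7% and 56.5%, then 53.2%, 42.9% and 49.3%. Ndufa3-204, of another complex I subunit, took 44.9%, 39.3% and 51.0%, then 45.5%, 44.0% and 53.4%, and replicate 2 was lowest for both genes in both tables. By counts Ndufs4-202 held 35.9% ± 3.37 and 32.8% ± 4.21, and Ndufa3-204 25.97% ± 4.69 and 29.7% ± 4.78. Ndufa3-204 has no base or junction of its own, so its share is uncertain. All of these mitochondrial proteins are encoded in the nucleus and translated on cytosolic ribosomes.

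Genes of the innate response, the programme that Lipid A turns on, passed in 2 of 16 cases, 12.5%, a share near the 17.2% of all host genes, with a median summed share of 0.902% and 1.18%. The list does not hold every interferon-induced gene. Oasl2, Oas1g, Gbp4 and Gbp6 are among the genes outside it that also passed, so the count depends on which genes were listed. Of 84 listed genes 65 met the level condition. The 2 were Mx1 and Xaf1, both induced by interferon. Mx1 encodes an antiviral GTPase, and C57BL/6 mice are known to carry a deletion within it that removes coding exons. Its member Mx1-205 took 49.3%, 50.9% and 56.0% by the first table and 29.1%, 34.0% and 30.8% by the second, at 104 ± 24.0 and 33.1 ± 6.74 TPM. Mx1-210 was at 5.75% ± 0.0563 and 10.3% ± 2.19 and Mx1-203 at 4.12% ± 0.455 and 11.8% ± 1.90, and by counts Mx1-203 held 5.79% ± 0.666 and 19.5% ± 2.54. The 3 transcripts together held 59.7%, 60.4% and 65.7% of the gene by the first table and 48.9%, 54.2% and 57.1% by the second. Xaf1, a proapoptotic protein, had 45.3%, 39.9% and 41.4% in Xaf1-201 by the first table and 42.6%, 39.2% and 39.0% by the second. Its stop lies 29 bases upstream of the last junction, short of the 50 base rule. Casp4, the caspase that senses cytosolic lipopolysaccharide, had little, with 1.88%, 6.54% and 3.16% in Casp4-203, highest in replicate 2, from 22.8, 134 and 52.8 expected counts. By counts its share was 2.29% ± 1.40 and 2.22% ± 1.39.

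Genes of lysosomes and endosomes passed in 1 of 8 cases, 12.5%, against 17.2% of all host genes, with a median of 0.601% and 0.932%. The gene was Ctsh, which encodes cathepsin H. Ctsh-202 took 42.3%, 38.1% and 46.3% by the first table and 29.2%, 22.6% and 27.0% by the second, and the tables did not overlap. The coding transcript Ctsh-201 remained the larger, at 55.9% and 63.9%. Gusb-206, of the beta-glucuronidase gene, was at 17.5% ± 3.71 by the first table and 1.86% ± 1.40 by the second. Ppt1-203 was at 1.89% ± 0.362 and 2.26% ± 0.324 and Ctsl-207 at 0.310% ± 0.176 and 0.388% ± 0.357. By counts Ctsl-207 held 0.0791% ± 0.0440 and 0.111% ± 0.0994. In Ctsl, whose protease is among the most abundant of macrophage lysosomes, the NMD transcript was thus a trace in every library.

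**Figure D4:**
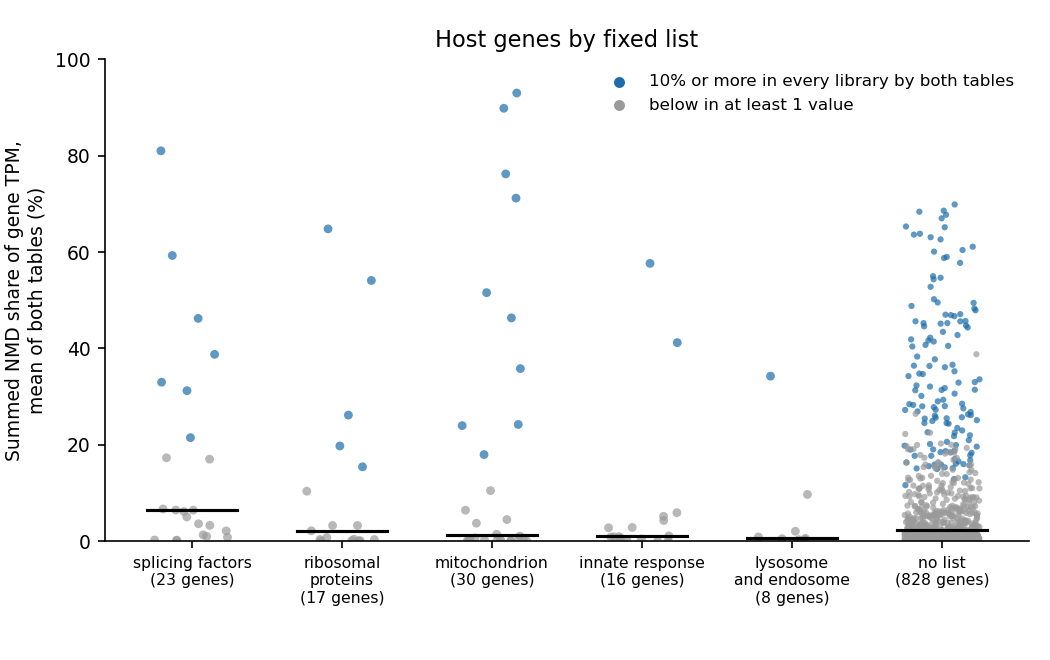
Summed share of the NMD transcripts in the TPM of each host gene (%, y axis, mean of both tables and 3 libraries) by gene list; each point is 1 gene, bars are medians and blue points reach 10% in every library by both tables. Of the splicing factors 7 of 23 do so and of the innate response genes 2 of 16.

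For some members the tables gave different answers. In genes of at least 20 TPM by both tables, the largest distance was that of Arf4-203, in the gene of a small GTPase of the Golgi, with 20.6%, 14.0% and 23.5% by the first table and 47.1%, 50.3% and 56.2% by the second. Ifi209-202, of an interferon-induced DNA-binding protein, was at 1.98%, 1.92% and 2.01% against 30.5%, 31.4% and 36.1%. Ifngr2-202, of the second chain of the interferon gamma receptor, was listed at 0 in replicate 1 and at 2.70% and 2.91% in the other libraries by the first table, against 28.0%, 30.6% and 30.3% by the second. Oas1g-203, of an oligoadenylate synthetase gene, was at 32.1% ± 4.68 against 59.2% ± 1.43, Wdr26-201 at 12.1% ± 2.96 against 39.1% ± 2.27, and Mfsd11-209 at 1.59% ± 0.714 against 23.8% ± 0.176. In these 6 members the second table was higher in every library, and the tables differed by far more than the libraries did within a table. A statement on these genes therefore depends on the table. By counts Ifngr2-202 held 0.173% ± 0.151 and 3.61% ± 0.364, and Ifi209-202 0.851% ± 0.0225 and 17.2% ± 2.08. Wdr26-201 held 6.30% ± 1.76 and 26.8% ± 0.750 and Mfsd11-209 2.08% ± 0.878 and 38.3% ± 0.409. Over all members, 101 lay more than 10 points apart.

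The genes that carry out the decay were themselves present in the cytosolic RNA. Of 32 listed genes, 31 had at least 1 TPM in every library by the first table, where 17.2% of all 55450 annotated genes did. The annotated genes include pseudogenes and noncoding genes, so they are not a like set. The core factor Upf1 was at 11.0, 9.34 and 13.1 TPM (11.1 ± 1.86, n = 3), Upf2 at 5.89 ± 0.642, Upf3a at 6.08 ± 0.506 and Upf3b at 2.25 ± 0.0862. The kinase gene Smg1 was at 12.0 ± 2.27 and the genes of its partners Smg8 and Smg9 at 4.85 ± 0.485 and 9.96 ± 0.585. The endonuclease gene Smg6 was at 2.34 ± 0.387, below Smg5 at 7.67 ± 0.393, whose protein takes part in the recruitment of the decay enzymes. Of the exon junction complex, Eif4a3 was at 30.3 ± 2.01, Magoh at 18.4 ± 1.24, Rbm8a at 11.8 ± 1.94 and Casc3 at 7.30 ± 0.552. Gspt2, a release factor paralogue, was at 0.197 ± 0.0569 and was the gene below 1 TPM, while its paralogue Gspt1 was at 19.5 ± 1.98. The highest was Pabpc1, the cytoplasmic poly(A)-binding protein that counters the pathway, at 230 ± 4.61. Of the list 7 genes have an annotated NMD transcript and 1, Smg1, met the level condition in both tables. Its member Smg1-204 was listed at 0 in every library by the first table and at 6.22%, 9.04% and 18.6% by the second.

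Known natural targets of the pathway were also measured. They are genes whose usual transcripts are degraded by it, and 1 of the 12 listed, Tbl2, has transcripts annotated as NMD transcripts. All 12 listed genes had at least 1 TPM in every library by the first table. The stress factors Ddit3 and Atf4 were at 114 ± 15.8 and 102 ± 12.9, Gadd45b at 108.5 ± 27.5 and Atf3 at 88.1 ± 17.2. Gas5, a small nucleolar RNA host gene, was at 44.8 ± 4.26 and the lowest, Tbl2, at 1.19 ± 0.166. In the first table all of Ddit3, Atf4, Gadd45b, Atf3 and Gas5 were highest in replicate 1 and lowest in replicate 3. With no cells in which the pathway was blocked, these levels do not show how much of any transcript was degraded.

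**Figure D5:**
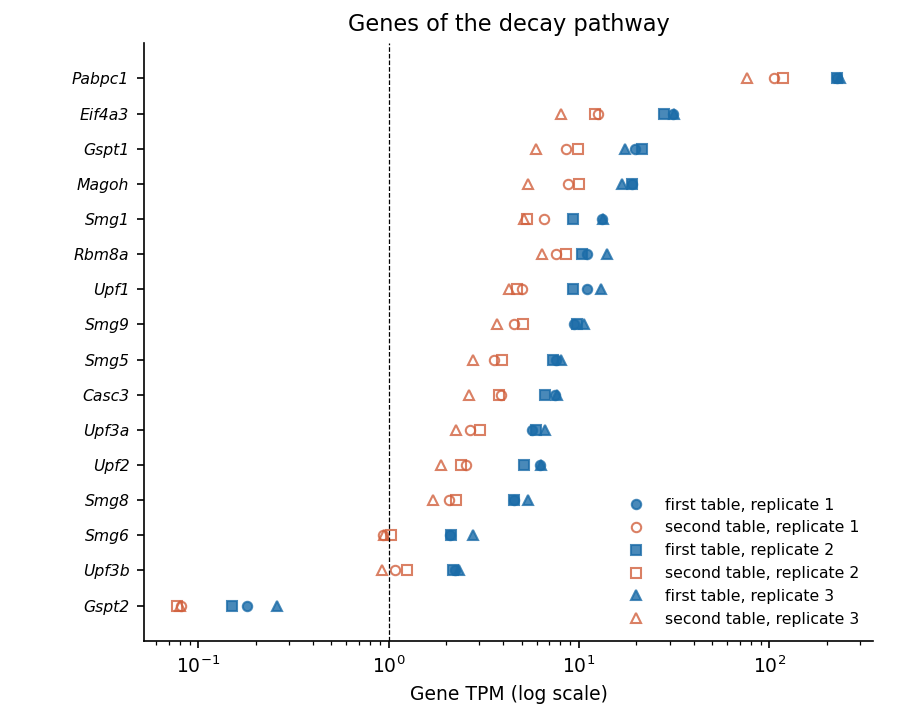
Level of the decay pathway genes named in the text in TPM (x axis, log scale) in each library by the first table (filled) and the second (open); symbols mark the replicates and the dashed line is 1 TPM. By the first table all genes shown but Gspt2 lie above the line, from Upf3b to Pabpc1.

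The depth was 28759407, 54709007 and 49878182 expected counts for annotated genes in replicates 1, 2 and 3. RNA of the signal recognition particle, 7SL, took 58.0% to 64.8% of all TPM in the first table and 14.9% to 27.9% in the second, so TPM levels are compared within a table here. The 1475 members together held 0.385% ± 0.00925 of all TPM by the first table and 0.201% ± 0.0448 by the second. NMD transcripts left out by the level condition are not in these sums. All 8 macrophage markers listed were detected in every library, and none of 17 markers of neutrophils, lymphocytes, erythroid and stromal cells reached 1 TPM. In the first table the posterior SD of the estimated count had a median of 6.48% of the count for the 147 members above 10%, and 17.3% over the 715 members with at least 10 counts. This error covers the division of reads between transcripts and not the spread between samples.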

How the data were processed

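Ribosomal RNA-depleted total RNA of the cytosolic fraction of 3 macrophage samples of 1 group was sequenced. For each library the authors deposited 2 transcript tables, both on build mm10 with GENCODE M21, per the notes deposited beside them. The first table, derived from transcriptome alignments and laid out as RSEM writes it per the file headers, gives the deposited expected counts, TPM, posterior means and the posterior SD of each count. The second, derived from reads and an index and laid out as kallisto writes it, gives estimated counts and TPM as deposited. TPM divides counts by effective length and scales every library to the same total. The quantifier, its version and the strandedness are not given in the sources used.

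Transcripts were joined by identifier. The 26345 rows of the first table without an annotated gene, which held 0.774%, 0.207% and 0.167% of expected counts, were left out of the sums. The share of a transcript is its TPM over the summed TPM of its gene, taken per library and table, and is given as mean ± SD over 3 libraries. With 1 group, no model across genes was fitted, and the single test is the exact sign-flip test on the NMD minus retained-intron difference. Exon structure came from the GENCODE M21 annotation and sequences from its transcripts. Near-identical transcripts of other genes were searched with blastn 2.17.0 (at least 95% identity over at least 80% of the shorter one) for the 41 named members. Python 3.11.15, pandas 2.3.3 and numpy 2.4.6 were used, and the calculations were tested on simulated data. Named members were the 12 of highest share, the 8 of highest TPM, the 6 with the largest distance between tables in genes of at least 20 TPM, up to 5 from each gene list, and the 3 genes on each side of the level condition, each by the lower of the tables. The members and lists were chosen with earlier results of these data known. Alternatives were another table, level condition, denominator, unit or pseudocount, complete members alone, and leaving out each library. Some named members are not reported here.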

Additional observations from a re-analysis of the deposited data

How the results depend on the processing

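No paired comparison of conditions was possible because there is 1 group. The only pairing was that of the NMD and retained-intron shares within each library. The pooled share moved by more than its small SD over libraries (main value 7.63%) to 7.20% by the first table alone, 8.18% by the second, 7.97% with genes of at least 1 TPM, 6.86% with at least 20 TPM, 5.17% by counts, 7.69% with posterior means, 8.16% with coding and NMD transcripts alone in the denominator, 7.54% with complete members alone and 7.87% with a pseudocount of 0.1 TPM, and without a replicate it ran from 7.62% to 7.68%. Without the host genes of the 10 members of highest TPM, an alternative chosen after seeing the data, it was 5.68%. The number of genes above 10% (159) became 345 by the first table alone, where the level condition admits 1768 host genes, 426 with at least 1 TPM and 34 with at least 20 TPM, where 2404 and 187 genes were admitted. It was 96 at a threshold of 20%, and ran from 166 to 217 without a replicate. The number of transcripts (147) became 327, 389 and 33 under the same changes of table and level, 239 at a threshold of 5% and 85 at 20%, and ran from 156 to 209 without a replicate. Leaving out a library can only keep or raise both numbers, since the level condition and the 10% rule must then hold in fewer libraries. Restricting the members to those within the ends of the coding transcripts left 136 genes, and to those with a base or junction of their own 130, both chosen after seeing the data. The difference from retained introns stayed positive under every alternative for which it was computed, from 2.43 to 3.57 percentage points. With coding and NMD transcripts alone in the denominator it is not defined. It was not computed without the host genes of the 10 members of highest TPM, nor for the other alternatives chosen after seeing the data. Of the 41 named members, 28 moved by more than their SD over libraries when counts replaced TPM, 18 with either table alone and 13 with the narrower denominator. None (0) did when any 1 library was left out. Leaving out 1 of 3 libraries cannot move a mean by as much as that SD, so this 0 carries no information. Of the pathway genes 28 were detected by the second table and 21 at 5 TPM.

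For 261 members the mean was 0 in at least 1 table.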

Other observations

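Several genes reached a summed NMD share of at least 50% through more than 1 transcript. They were named after their values were seen and are given as values. Eif4a2 encodes an RNA helicase of translation initiation, and its members summed to 69.9%, 75.8% and 68.1% in replicates 1, 2 and 3 by the first table and to 57.1%, 59.8% and 52.1% by the second. Bak1, a BCL2 family protein that permeabilises the outer mitochondrial membrane, had 66.3%, 71.9% and 77.3% by the first table and 52.6%, 58.1% and 65.8% by the second, with replicate 1 lowest in both. In both genes the first table lay above the second in every library. Sdhaf2, an assembly factor of succinate dehydrogenase, had 69.1% ± 2.54 and 70.6% ± 3.34 (SD, n = 3), and Cdipt, the phosphatidylinositol synthase, 68.8% ± 4.98 and 68.0% ± 4.82. Dgkz, a diacylglycerol kinase, had 62.6% ± 2.61 and 64.7% ± 1.64, and Acer3, an alkaline ceramidase, 54.7% ± 2.78 and 62.9% ± 1.76.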
